A study of Homo sapiens with 3 samples.

Results

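The genes RUNX1, RUNX2, RUNX3 and CBFB encode the RUNX transcription factors and their shared partner. Their loci were examined for chromatin occupancy by the related lysine acetyltransferases p300 and CBP in cells given control siRNA or siRNA against Fra-1. A p300/CBP peak was assigned to a locus when its centre lay within the gene as annotated on hg19 or within 100 kb of its transcription start site (TSS). This gave 70 of the 82901 siCTL peaks and 35 of the 39320 siFra-1 peaks. Overlapping peaks of the 2 lists were joined into sites, of which 88 of 114062 lay at these loci, with 49 at RUNX1, 29 at RUNX2, 8 at RUNX3 and 2 at CBFB.

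MDA-MB-231 cells, a human line widely taken to represent triple-negative breast cancers, were used, in which the Fos family protein Fra-1, encoded by FOSL1, is abundant. Control siRNA (siCTL) or 3 pooled siRNAs directed at Fra-1 (siFra-1) were given at 4.5 nM. After 72 h the cells underwent fixation for 7 min, and ChIP-seq followed with an antibody to p300/CBP. Of the 3 samples of the series, the input is not analysed here, and each of the other 2 is 1 library made from pooled immunoprecipitations. Neither condition was thus replicated, so the conditions could not be tested against each other and p-values are not given. Each list holds positions on hg19 and no peak height. A difference is thus one of presence or width, where width is the length over which the signal stayed above a fixed threshold. Read depth is unknown and the lists carry no measure of Fra-1 itself. Intervals are 95% intervals that cover counting error only.

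The 3 RUNX proteins share the Runt domain, which binds DNA and also binds CBFB. CBFB does not touch DNA itself but strengthens the hold of its partner. RUNX1 is known above all for blood cell formation, RUNX2 for bone formation and for invasion of breast cancer cells, and RUNX3 for T cells, sensory neurons and the gut. Each RUNX gene is transcribed from a distal promoter, P1, and a proximal promoter, P2, which yield proteins with different amino termini. RUNX proteins, AP-1 (Fos and Jun proteins) and TEAD factors can occupy the same enhancers, where p300 and CBP acetylate histones.

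To show what lay under the peaks, the sequence is given for the widest site of each gene and for its widest sites found in 1 list alone. The bases are the plus strand of GRCh37, at most 300 about the centre of a site, and capitals mark matches to 4 motifs on either strand. The motifs were TGAGTCA or TGACTCA for AP-1, TGTGGT or TGCGGT for RUNX, GGAATG for TEAD and CCGGAAG or CAGGAAG for ETS. Each letter string is counted with its reverse complement, and a match is a description of the letters only.

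At RUNX1, the widest site, A, is printed from chr21:36179952-36180251. Sites B (chr21:36511077-36511376), C (chr21:36551177-36551476) and D (chr21:36604977-36605276) had a peak of 350 bp in siCTL and none in siFra-1. Site E (chr21:36598652-36598901) had a peak of 250 bp in siFra-1 and none in siCTL. AP-1 letters stand in A, where they occur at 2 positions, and in B, D and E, whereas C holds only the TEAD letters.
RUNX1 site A: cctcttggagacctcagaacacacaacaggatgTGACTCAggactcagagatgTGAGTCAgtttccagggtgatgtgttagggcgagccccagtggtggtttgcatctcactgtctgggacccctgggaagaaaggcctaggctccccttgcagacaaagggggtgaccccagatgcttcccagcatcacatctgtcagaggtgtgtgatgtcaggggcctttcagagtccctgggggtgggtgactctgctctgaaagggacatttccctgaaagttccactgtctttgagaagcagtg
RUNX1 site B: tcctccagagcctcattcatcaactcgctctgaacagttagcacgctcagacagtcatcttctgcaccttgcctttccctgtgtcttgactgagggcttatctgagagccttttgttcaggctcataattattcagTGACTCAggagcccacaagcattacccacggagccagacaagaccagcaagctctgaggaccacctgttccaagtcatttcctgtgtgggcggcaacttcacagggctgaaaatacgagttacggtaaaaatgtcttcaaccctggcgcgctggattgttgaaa
RUNX1 site C: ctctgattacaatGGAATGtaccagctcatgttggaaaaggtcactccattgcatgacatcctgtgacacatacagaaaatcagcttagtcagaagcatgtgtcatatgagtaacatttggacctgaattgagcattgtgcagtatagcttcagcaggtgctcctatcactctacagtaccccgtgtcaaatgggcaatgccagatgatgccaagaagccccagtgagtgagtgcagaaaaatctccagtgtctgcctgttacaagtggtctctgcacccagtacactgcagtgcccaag
RUNX1 site D: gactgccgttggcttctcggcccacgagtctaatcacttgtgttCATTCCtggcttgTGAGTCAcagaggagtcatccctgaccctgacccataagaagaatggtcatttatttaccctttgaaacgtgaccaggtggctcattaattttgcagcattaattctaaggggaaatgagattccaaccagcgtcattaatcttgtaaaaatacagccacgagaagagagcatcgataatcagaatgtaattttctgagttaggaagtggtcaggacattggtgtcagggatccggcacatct
RUNX1 site E: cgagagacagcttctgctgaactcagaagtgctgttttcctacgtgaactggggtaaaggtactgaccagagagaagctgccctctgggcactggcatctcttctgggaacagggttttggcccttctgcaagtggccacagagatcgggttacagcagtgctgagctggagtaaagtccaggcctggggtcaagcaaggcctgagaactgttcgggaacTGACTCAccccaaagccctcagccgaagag

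At RUNX2, the widest site, A, is printed from chr6:45413602-45413901 and holds the TEAD letters at 2 positions. Site B (chr6:45615102-45615401), the widest found in siCTL alone, holds none of the motifs.
RUNX2 site A: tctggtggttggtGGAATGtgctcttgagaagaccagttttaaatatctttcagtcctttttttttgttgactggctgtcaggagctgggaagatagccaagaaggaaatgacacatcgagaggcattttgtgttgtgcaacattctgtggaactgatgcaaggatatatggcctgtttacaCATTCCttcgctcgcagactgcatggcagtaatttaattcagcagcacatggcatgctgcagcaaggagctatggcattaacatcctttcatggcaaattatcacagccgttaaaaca
RUNX2 site B: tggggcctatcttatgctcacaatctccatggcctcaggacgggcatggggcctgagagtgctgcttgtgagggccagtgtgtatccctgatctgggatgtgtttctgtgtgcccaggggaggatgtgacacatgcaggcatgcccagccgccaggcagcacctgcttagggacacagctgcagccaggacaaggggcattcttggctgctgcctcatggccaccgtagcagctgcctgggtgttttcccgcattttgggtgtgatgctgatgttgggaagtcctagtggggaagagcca

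At RUNX3 the 3 widest sites were only 150 bp wide. Site A (chr1:25257452-25257601) was found in siCTL, and B (chr1:25348902-25349051) and C (chr1:25349402-25349551) in siFra-1. Both sites of CBFB were 100 bp wide and found in siCTL, and the one nearer to the gene, A, is printed from chr16:67062452-67062551. Of these 4, RUNX3 site C alone holds any of the motifs, AP-1 and RUNX.
RUNX3 site A: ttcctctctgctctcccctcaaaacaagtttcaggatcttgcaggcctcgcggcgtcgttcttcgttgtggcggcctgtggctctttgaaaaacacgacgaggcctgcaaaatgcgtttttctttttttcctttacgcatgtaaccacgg
RUNX3 site B: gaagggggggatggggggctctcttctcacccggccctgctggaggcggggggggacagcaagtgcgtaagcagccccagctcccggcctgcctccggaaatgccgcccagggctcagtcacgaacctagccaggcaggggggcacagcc
RUNX3 site C: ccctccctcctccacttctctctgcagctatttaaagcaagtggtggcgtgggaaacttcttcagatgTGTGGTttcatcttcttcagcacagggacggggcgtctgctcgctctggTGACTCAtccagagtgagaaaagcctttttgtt
CBFB site A: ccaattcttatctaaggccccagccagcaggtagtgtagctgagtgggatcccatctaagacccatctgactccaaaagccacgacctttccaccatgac

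Peaks were fewer at the RUNX loci in siFra-1, as elsewhere, while wide peaks were about as many in both conditions. The ratio of siFra-1 to siCTL peaks was 0.5 (interval 0.323 to 0.761) at the 4 loci and 0.474 outside them. The missing peaks were mostly the narrowest that the lists hold: of peaks of 100 bp there were 45 in siCTL and 15 in siFra-1. Of peaks of at least 250 bp, called wide from here on, there were 13 in siCTL and 11 in siFra-1, all of them at RUNX1 and RUNX2. That ratio was 0.846 (0.343 to 2.05), whereas across the genome wide peaks were more frequent in siFra-1, with a ratio of 1.64 (1.57 to 1.71). The interval at the loci includes the value of the genome. The summed width of the peaks was 11200 bp in siCTL and 7650 bp in siFra-1, a ratio of 0.683 against 0.632 genome-wide.

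The RUNX loci held a larger share of wide peaks than the rest of the genome in both conditions, as did the Fos and Jun loci described below. In siCTL, 18.6% of their peaks were wide against 4.40% outside, a difference of 14.2 percentage points (6.79 to 24.8). In siFra-1, 31.4% were wide against 15.2% outside, a difference of 16.2 points (3.33 to 32.8). Over peaks of all widths, those of the 4 loci pooled were also more often found in both lists. A siFra-1 peak overlapped 15 of the 70 siCTL peaks, or 21.4%, against 9.56% of all siCTL peaks. A siCTL peak overlapped 15 of the 35 siFra-1 peaks, or 42.9%, against 19.1% of all siFra-1 peaks. The difference from the peaks outside was 11.9 points (3.89 to 22.8) for siCTL and 23.7 points (interval from 8.86 up to 40.03) for siFra-1. Peaks of 1 locus are not independent, and wide peaks overlap more readily than narrow ones. Among wide peaks alone, 9 of 13 in siCTL and 10 of 11 in siFra-1 met a peak of the other list, whatever its width, against 85% and 68.2% of all wide peaks. The share at these loci was 69.2% in siCTL, below the genome value, and 90.9% in siFra-1, above it. With only 13 and 11 peaks and no interval given, neither difference can be taken as detected.

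**Figure D1:**
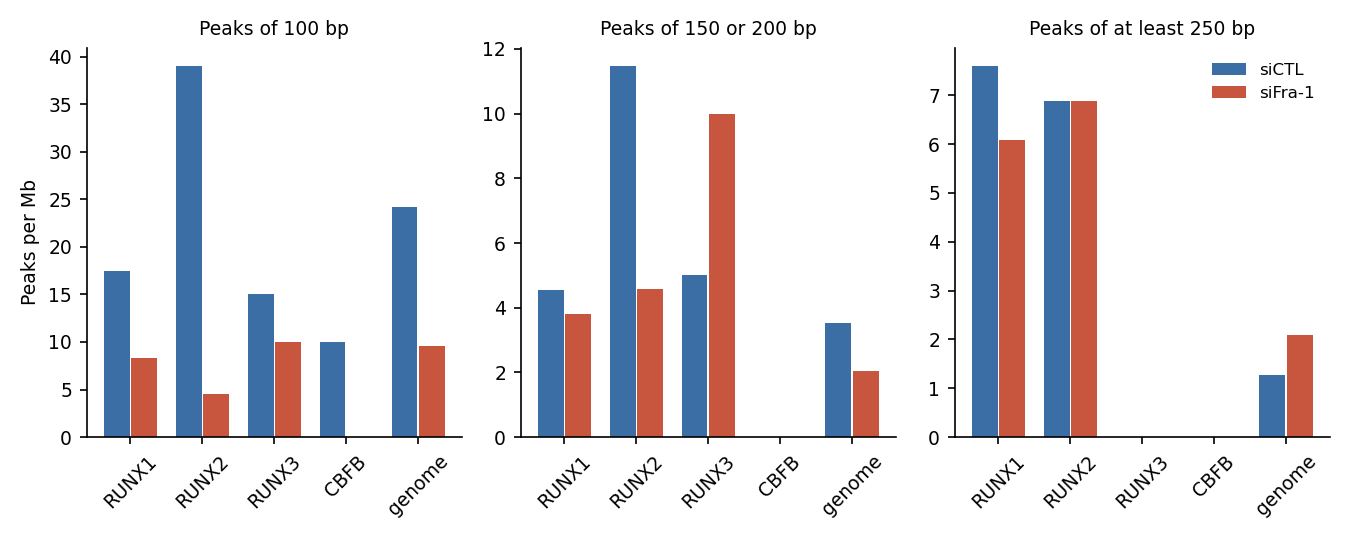
Peaks per Mb in 3 classes of width (bars, siCTL in blue and siFra-1 in red) at each locus and over the whole genome, with a different vertical scale in each panel and no error bars, as there was 1 library per condition. RUNX1 with 7.59 and RUNX2 with 6.88 wide siCTL peaks per Mb stand above the genome value of 1.28, and RUNX3 and CBFB had no wide peak.

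Of the 88 sites, 13 were in both lists, 55 in siCTL alone and 20 in siFra-1 alone, and over all sites these shares were 6.39%, 65.7% and 27.9%. Among the 13, the site was wider in siFra-1 at 7, of equal width at 3 and narrower at 3. Genome-wide, 52.3% of the sites in both lists were wider and 24.3% narrower in siFra-1. The median difference in width, siFra-1 minus siCTL, was 50 bp at the loci (interval -50 to 150) and 50 bp genome-wide, which is also the step of the grid on which the lists were made. Of the 13 sites with a wide siCTL peak, 6 were narrower in siFra-1 or absent from it, close to the 47.1% of all such sites. Of the 11 sites with a wide siFra-1 peak, 1 was absent from siCTL, against 32% of all such sites. With 11 sites and no interval given, that difference cannot be taken as detected.

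**Figure D2:**
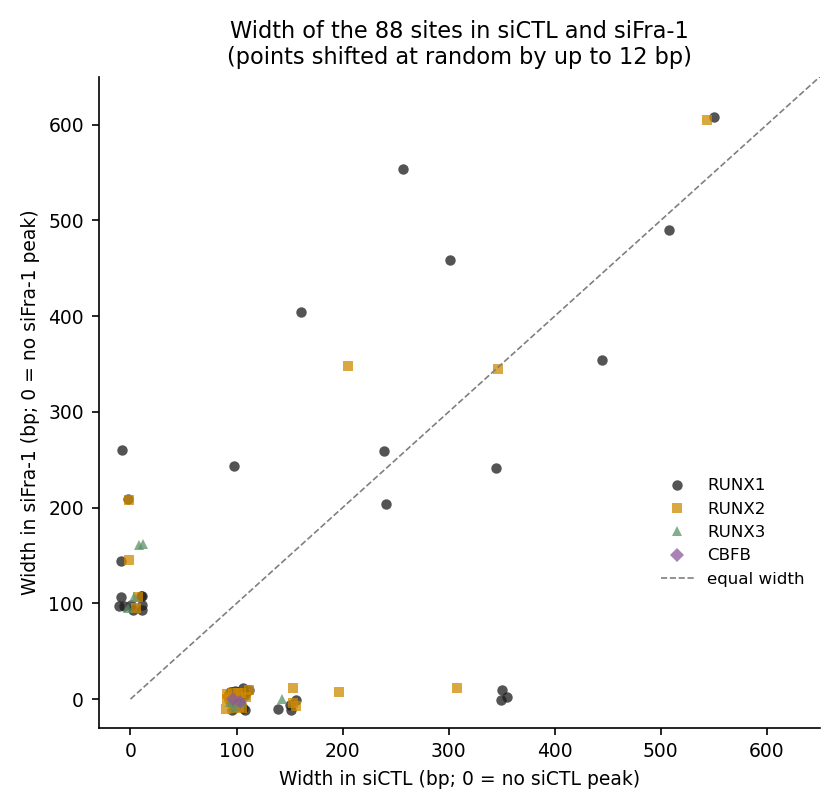
Summed peak width of each of the 88 sites in siCTL (horizontal, bp) against siFra-1 (vertical, bp), by gene; a value of 0 means no peak in that list, and points are shifted at random by up to 12 bp so that they can be told apart. The 13 sites in both lists spread around the line of equal width, and the sites in 1 list alone lie along the axes, most of them at 100 bp.

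RUNX1 (ENSG00000159216), a Runt domain factor that many leukaemias alter, had the most peaks of the 4 loci, in the longest window. Per Mb, RUNX2 had more in siCTL, with 57.3 peaks against 29.6 at RUNX1. The gene lies on the minus strand of chromosome 21. Its record in the annotation spans chr21:36160098-37376965, or 1217 kb, because its longest transcripts start far upstream. The canonical transcript, from P1, covers 262 kb of it (chr21:36160098-36421599), and P2 lies 161 kb downstream of P1. With 100 kb added about the TSS, the window was 1317 kb long. It held 39 siCTL and 24 siFra-1 peaks, which gives 0.615 (0.354 to 1.05) as their ratio, beside 0.646 (0.579 to 0.720) for chromosome 21 as a whole. With the canonical transcript and 100 kb about its TSS in place of the gene record, 21 peaks were left in siCTL and 14 in siFra-1, which gives 0.667 (0.314 to 1.37), and the 4 loci together then held 43 and 22. Wide peaks numbered 10 in siCTL and 8 in siFra-1, whereas on chromosome 21 there were 58 and 98.

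Only 3 of 20090 protein-coding genes (0.0149%), RUNX1 included, had as many as 10 wide siCTL peaks under the same rule. In siFra-1, 0.378% of genes had at least as many wide peaks as the 8 at RUNX1. The length of the window bears on both shares. In peaks of any width RUNX1 was ordinary, with 29.6 siCTL peaks per Mb against 29 over the genome, and 7.91% of genes had at least as many wide siCTL peaks per Mb. The 43 genes with a window at least as long included RUNX1 itself. Their median was 0 wide siCTL peaks, and the highest number was 10, which is the number at RUNX1. Of the 49 RUNX1 sites, 10 were in both lists (20.4%, against 6.39% of all sites), 27 in siCTL alone (55.1%, against 65.7%) and 12 in siFra-1 alone (24.5%, against 27.9%).

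**Figure D3:**
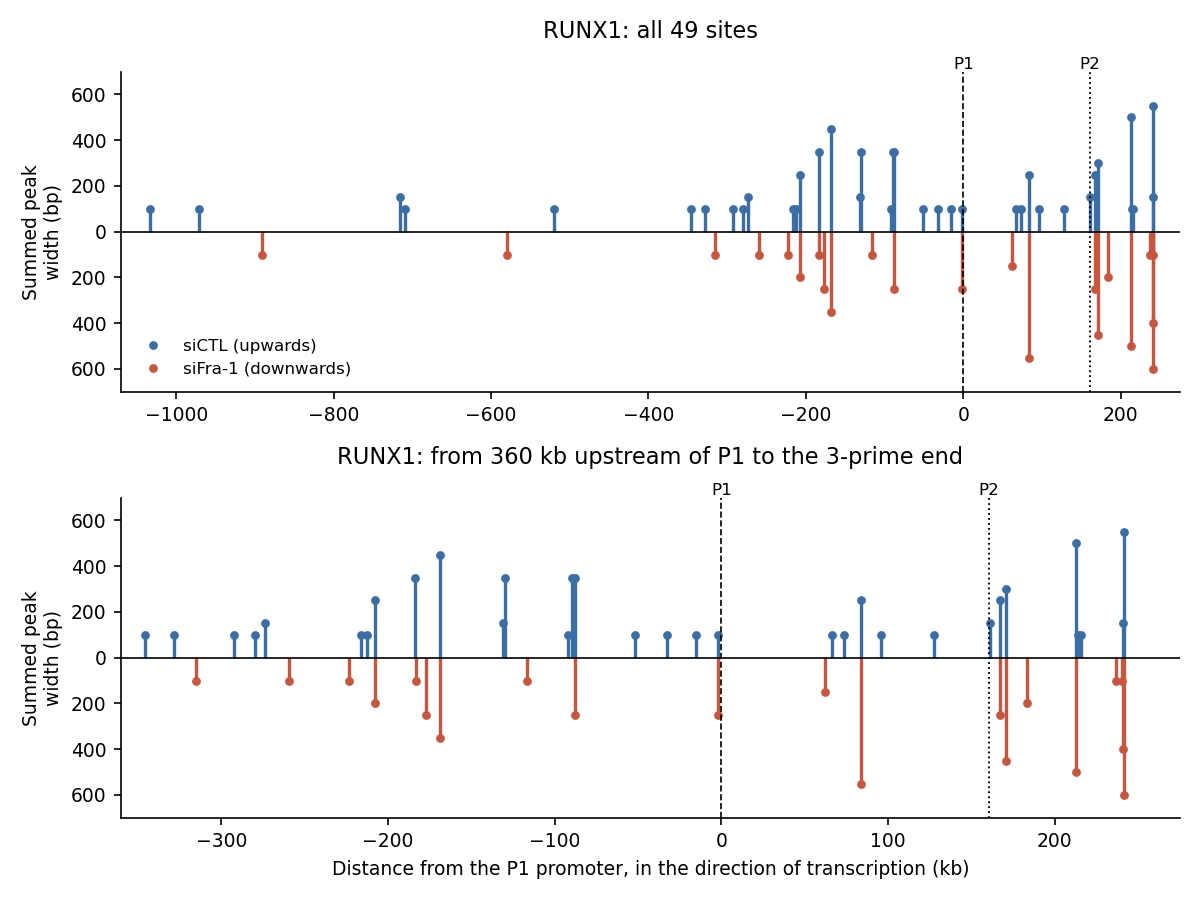
Summed peak width (bp) of the RUNX1 sites in siCTL (upwards, blue) and siFra-1 (downwards, red) by distance from P1 in the direction of transcription (kb), for all 49 sites above and without the 7 farthest upstream below; the dashed and dotted lines mark P1 and P2. Wide peaks lie in the gene, mostly past P2, and in a stretch upstream of P1, where several blue bars have a shorter red counterpart or none.

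Downstream of P1, the RUNX1 sites with a wide siCTL peak had an equal or larger summed width in siFra-1. Near the 3′ end, in an intron 80.9 kb past P2, site A (chr21:36179802-36180401) was the widest of the locus with 550 bp in siCTL and 600 bp in siFra-1. Its AP-1 letters start at 36179985 and 36180005. A neighbour 50 bp away on the grid, chr21:36180452-36180851, measured 150 bp in siCTL and 400 bp in siFra-1 and holds 1 RUNX and 1 ETS match. At chr21:36208402-36209001, peaks summing to 500 bp were present in each condition. That site lies over RUNX1 and an exon of a lncRNA on the other strand (ENSG00000286153). It holds 2 AP-1 matches, 1 RUNX match and 1 ETS match.

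Closer to P2 there were another 2 intronic sites with TEAD letters. The site at chr21:36250802-36251251, 9.96 kb past P2, measured 300 bp in siCTL and 450 bp in siFra-1. The other, chr21:36254102-36254401, 6.74 kb past P2, measured 250 bp in both. In siFra-1 it was split into 2 peaks of 150 and 100 bp, neither of them wide. In the long intron between P1 and P2, chr21:36337752-36338301 showed the largest gain in width at these loci, from 250 bp in siCTL to 550 bp in siFra-1, and holds 1 RUNX match. By summed width, the 5 sites of the canonical gene with a wide siCTL peak were thus wider in siFra-1 at 3 and equal at 2. The summed width over this stretch was 2750 bp in siCTL and 3300 bp in siFra-1, a ratio of 1.2, from 14 and 11 peaks.

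Upstream of P1, 23 of the 32 sites of RUNX1, or 71.9%, were narrower in siFra-1 or absent from it, near the 67.3% of all sites. The sites with a wide siCTL peak were all among them. Nearest to P1, 2.23 kb upstream, chr21:36423702-36423951 was the exception among upstream sites in both lists, with 100 bp in siCTL and 250 bp in siFra-1. At 87.8 kb upstream, within an intron of the lncRNA ENSG00000234703, chr21:36509252-36509601 measured 350 bp in siCTL and 250 bp, in 2 pieces, in siFra-1. It holds 1 RUNX match and 1 TEAD match. Site B (chr21:36511052-36511401), at 89.6 kb and over an exon of the same lncRNA, measured 350 bp in siCTL and was absent from siFra-1. Site C (chr21:36551152-36551501), at 130 kb, also had 350 bp in siCTL and no siFra-1 peak.

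Farther upstream lay a group of sites with AP-1 letters. At 169 kb, chr21:36589902-36590351 measured 450 bp in siCTL and 350 bp in siFra-1 and holds 2 AP-1 matches and 1 TEAD match. Site E (chr21:36598652-36598901), at 177 kb, was absent from siCTL and measured 250 bp in siFra-1, the only wide site of the 4 loci found in siFra-1 alone. Site D (chr21:36604952-36605301), at 184 kb, measured 350 bp in siCTL, and the nearest siFra-1 peak was one of 100 bp beside it (chr21:36604652-36604751). At 208 kb, chr21:36629002-36629301 held 2 AP-1 matches and 2 siCTL peaks summing to 250 bp, against 200 bp in siFra-1, none of them wide.

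All 5 upstream sites with a wide siCTL peak were therefore narrower in siFra-1 (2) or absent from it (3), against 0 of 5 within the canonical gene and 47.1% of all such sites. The canonical count was 1 of 5 when peaks within 500 bp were merged and 2 of 5 when an overlap of 50% was required, and with merged peaks the upstream count was 5 of 6. The division at P1 was made after the widths had been seen, and the numbers are small. The upstream summed width was 4050 bp in siCTL and 2000 bp in siFra-1, a ratio of 0.494, from 25 and 13 peaks. The shares of the 32 upstream sites found in siCTL alone (62.5%) and in siFra-1 alone (25%) were close to the 65.7% and 27.9% of all sites. Beyond 300 kb from P1 every peak was of 100 or 150 bp and none was in both lists.

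RUNX2 (ENSG00000124813), the master regulator of osteoblasts, had the lowest ratio of peaks among the loci with more than 2 sites. The gene lies on the plus strand of chromosome 6 (chr6:45295894-45632086), with P2 94.2 kb downstream of P1, and SUPT3H, transcribed from the other strand, overlaps its 5′ part. The window of 436 kb held 25 siCTL peaks but 7 in siFra-1, or 0.28 times as many (0.102 to 0.666), beside 0.465 (0.443 to 0.489) for chromosome 6. A ratio of at most 0.5 was found for 66.4% of the 6821 protein-coding genes with at least 10 siCTL peaks, and 25.9% of those genes were at or below the ratio of RUNX2, against 78.7% at or below that of RUNX1. The narrow peaks made the difference, with 17 of 100 bp in siCTL and 2 in siFra-1. Wide peaks numbered 3 in each.

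RUNX2 site A, in an intron 23.5 kb past P2 (chr6:45413452-45414051), measured 550 bp in siCTL and 600 bp in siFra-1. It was the only siFra-1 peak between P2 and the end of the canonical transcript, where 6 other siCTL peaks of 100 or 150 bp had no counterpart. Between P1 and P2, siCTL had 6 peaks of 100 to 200 bp summing to 750 bp, and siFra-1 had 1 of 100 bp elsewhere.

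The remaining wide sites of RUNX2 lay together beyond the canonical 3′ end (45518819), in an intron of longer transcripts. Site B (chr6:45615102-45615401), 319 kb from P1, measured 300 bp in siCTL and was absent from siFra-1. The site at chr6:45618352-45618701, with 1 AP-1 match, measured 200 bp in siCTL and 350 bp in siFra-1. The third, chr6:45623602-45623951, measured 350 bp in both and holds 2 AP-1 matches and 1 TEAD match. Next to it, chr6:45624002-45624201 was absent from siCTL and measured 200 bp in siFra-1. The 3 RUNX2 sites in both lists were thus wider (2) or equal (1) in siFra-1. Of all such sites 24.3% were narrower, and 3 sites are too few to show a difference from that share. Of the 29 sites, 22 were in siCTL alone (75.9%, against 65.7% of all sites) and 4 in siFra-1 alone (13.8%, against 27.9%). The share of siCTL peaks with a siFra-1 overlap, 12% (4.17 to 30.0), was near the 9.56% of the genome.

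RUNX3 (ENSG00000020633), often silenced in carcinomas, had few and narrow peaks. Its gene lies on the minus strand at chr1:25226002-25291612, with P2 34.7 kb downstream of P1 and used by the canonical transcript. The window of 200 kb held 4 siCTL and 4 siFra-1 peaks of 100 or 150 bp, none in both lists. No peak was found between P2 and the 3′ end in either condition. Site B and C of siFra-1 and a siCTL peak of 100 bp (chr1:25349302-25349401) formed a small group 57.5 to 58.0 kb upstream of P1, where the siCTL peak abuts site C. A count of 4 peaks against 4 has a ratio with an interval of 0.186 to 5.37, so no difference in number was detectable.

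CBFB (ENSG00000067955), the partner without which RUNX proteins bind DNA weakly, had 2 peaks in siCTL and 0 in siFra-1 in its window. Its gene lies on the plus strand at chr16:67062887-67134961 and held none within its body. Site A, 0.55 kb upstream of the TSS, and the other site, farther upstream, were present in siCTL alone. With 250 kb about the TSS the numbers became 12 in siCTL and 6 in siFra-1, or 0.5 times as many (0.154 to 1.44). The siFra-1 peak nearest to the 100 kb window was one of 450 bp (chr16:66960952-66961401) with its centre 1.71 kb outside the lower edge. An siCTL peak of 100 bp also lay 1.34 kb outside that edge. At RUNX2 a siFra-1 peak of 100 bp lay 2.29 kb outside, and in all other cases the peak of a list nearest to an edge from outside was 16.05 kb or more away.

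**Figure D4:**
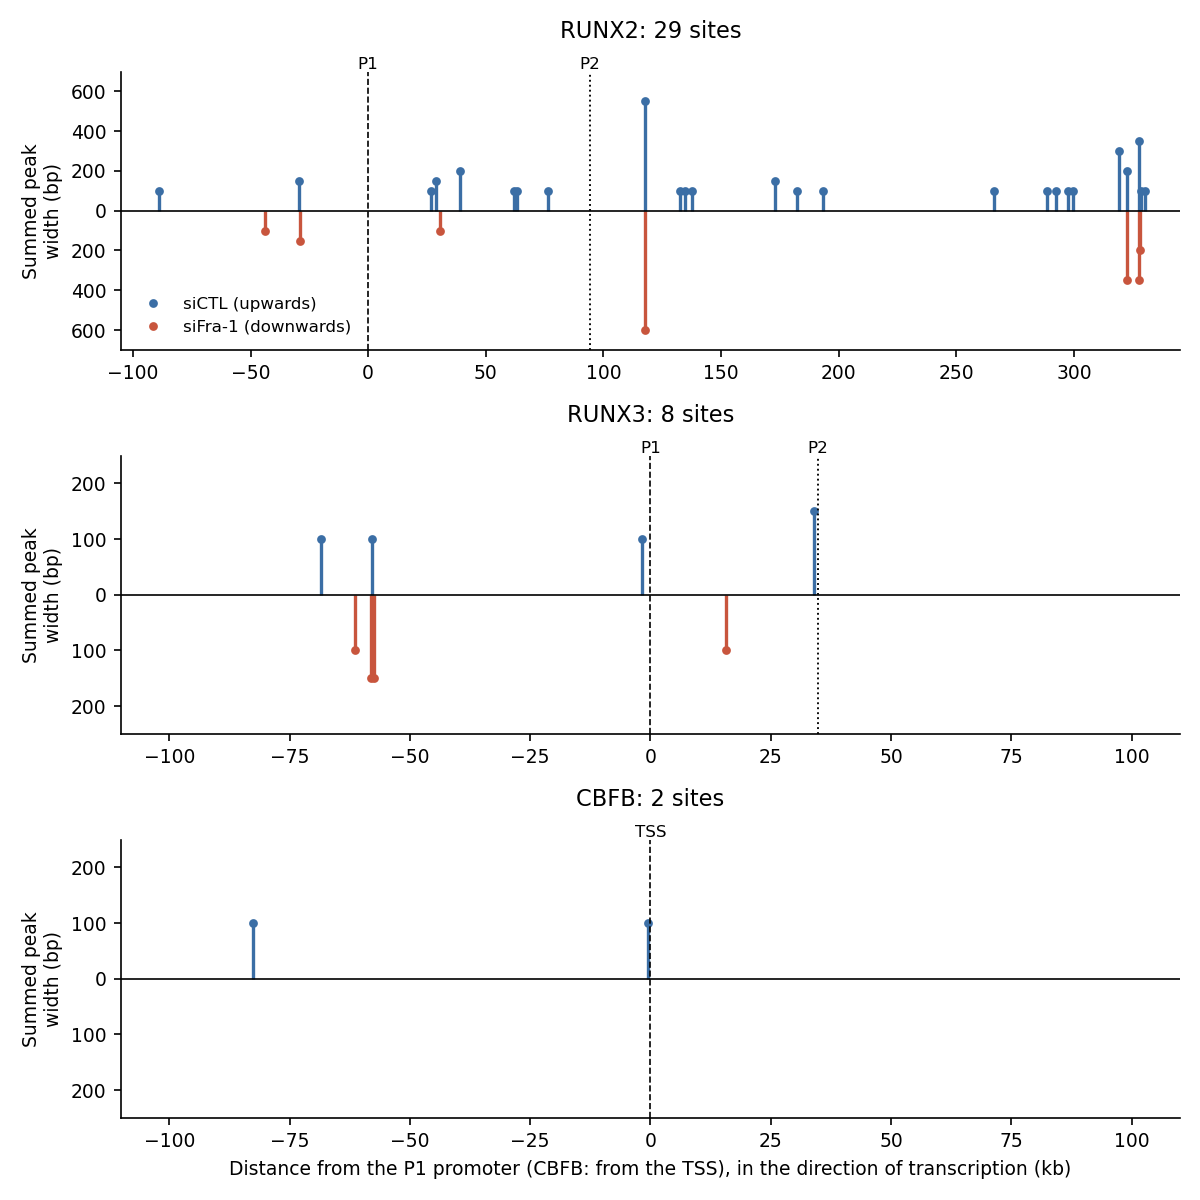
Summed peak width (bp) of the sites of RUNX2, RUNX3 and CBFB in siCTL (upwards, blue) and siFra-1 (downwards, red) by distance from P1, or from the TSS for CBFB, in the direction of transcription (kb); the dotted line marks P2. RUNX2 has a site of 550 bp in siCTL and 600 bp in siFra-1 past P2 and a group near its far end, and the peaks of RUNX3 and CBFB do not exceed 150 bp.

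The promoters themselves carried little p300/CBP signal above the threshold. Windows of 3 kb centred on the TSS were reached by a site at 3 of the 7 promoters, and each of these sites was narrow and found in siCTL alone. At RUNX1 P2 the site was chr21:36260252-36260401, of 150 bp, in an untranslated region 0.66 kb past the TSS. At RUNX3 P2 it was site A, of 150 bp, 0.76 kb upstream, and at CBFB it was site A, of 100 bp. Neither promoter of RUNX2 was reached, nor was P1 of RUNX1 or RUNX3, though a siCTL peak of 100 bp with an AP-1 match lay 1.85 kb upstream of RUNX3 P1. Of the 3292 siCTL peaks that reached such a window at the TSS of a protein-coding gene, 88.2% had no siFra-1 overlap.

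AP-1 letters were more frequent at the RUNX loci than in all sites when widths were pooled. In 200 bp about the centre, 13 of the 88 sites held one, or 14.8% (8.84 to 23.7), against 6.07% of all sites and 2.27% of the same windows moved by 2 kb. Of the 17 sites with a wide peak in either list, 7 held one, or 41.2% (21.6 to 64.0), against 24.2% of all wide sites, which lies within that interval. Of the 71 narrower sites, 6 held one, or 8.45% (3.93 to 17.2), against 4.86% of all narrower sites, which also lies within the interval. Both shares were thus above those of all sites, but with 17 and 71 sites no excess was detectable within a class of width. The RUNX loci also held a larger share of wide sites, and whether that accounts for the pooled difference was not tested. By list, 6 of the 13 sites in both lists held AP-1 letters in the central 200 bp. So did 6 of the 55 in siCTL alone (10.9%, 5.10 to 21.8) and 1 of the 20 in siFra-1 alone (5%, 0.888 to 23.6). The letters of RUNX1 site E, in siFra-1 alone, reach past that window and are not counted. In the whole site, 12 of the 88 held AP-1 letters. Shares by list over all sites of the genome were not computed, and a difference between the lists was not tested.

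RUNX letters were no more frequent at the RUNX loci than in all sites. They stood in 14 of the 88, or 15.9% (9.72 to 25.0), against 18.3% of all sites and 18.2% of the moved windows. Among the 17 wide sites, 1 held them in the central 200 bp, or 5.88% (1.05 to 27.0), against 29.6% of all wide sites. Outside that centre they also stood in the wide sites at chr21:36180452-36180851, chr21:36208402-36209001 and chr21:36337752-36338301. TEAD letters stood in 18 sites, or 20.5% (13.3 to 30.0), against 13.6% of all, and ETS letters in 3, or 3.41%, against 8.24%, all 3 of them wide sites in both lists.

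**Figure D5:**
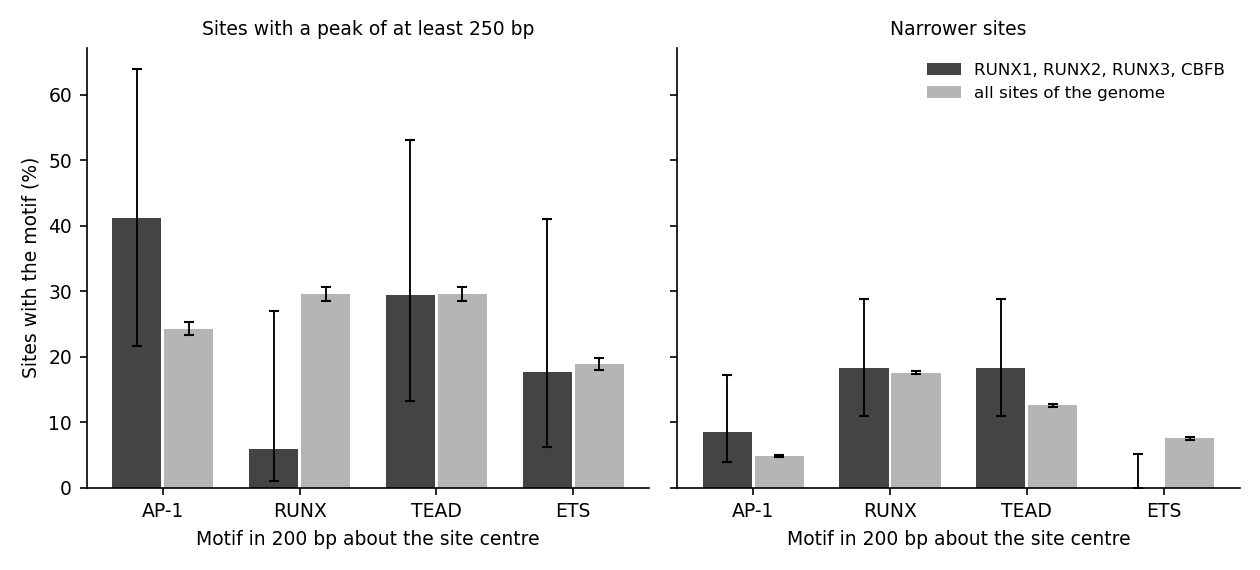
Share of sites (%) with a match to each of 4 motifs in 200 bp about the site centre, at the RUNX loci (dark bars) and over all sites of the genome (light bars), for sites with a peak of at least 250 bp (left) and narrower sites (right); error bars are 95% Wilson intervals for counting error. AP-1 reaches 41.2% of the 17 wide sites of the RUNX loci and RUNX 5.88%.

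Genes that act with the RUNX factors were counted in the same way. For the 16 co-factor genes (TLE and CBFA2T corepressors, acetyltransferases, YAP1, WWTR1, ETS1, SMAD3 and others), peaks were fewer in siFra-1 at 11 and more at 3, whereas wide peaks were fewer at 2 and more at 4. SMAD3, which carries TGF-beta signals and binds RUNX proteins, had the largest increase, from 7 wide peaks in siCTL to 12 in siFra-1. The decreases were at WWTR1, which encodes the TEAD coactivator TAZ, with 2 and 1, and at ETS1, which encodes a DNA-binding partner of RUNX1, with 1 and 0. Together these genes had 12 wide peaks in siCTL and 22 in siFra-1, beside 13 and 11 for the RUNX genes and CBFB; whether the balance differed was not tested.

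At 16 genes known as RUNX targets, peaks were fewer in siFra-1 at 14 and equal at 2, and wide peaks were fewer at 3 and more at 3. Those with fewer were the bone matrix genes SPP1 and IBSP and the hormone gene PTHLH, each with 1 wide peak in siCTL and 0 in siFra-1. VEGFA, CDKN1A and LGALS3 each had 1 in siCTL and 3 in siFra-1. Over all protein-coding genes, peaks were fewer at 83.4%, and wide peaks were fewer at 7.55% and more at 16.8%. The median difference in wide peaks was 0 in every list and over all genes.

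Among the Fos and Jun genes, whose products make up AP-1, 108 siCTL and 71 siFra-1 peaks were found, with 16 and 17 wide ones. As at the RUNX loci pooled, the share of siCTL peaks that were overlapped was above that of the genome, at 20.4% (13.9 to 28.9). The share of wide peaks was also above that of the genome, at 14.8% (9.33 to 22.7) in siCTL and 23.9% (15.5 to 35.0) in siFra-1. Per Mb these loci had 11.4 and 12.1 wide peaks, against 6.04 and 5.11 at the RUNX loci. The TEAD genes, with 57 and 21 peaks, had 0 wide peaks in siCTL and 2 in siFra-1, and 3.51% (0.968 to 11.9) of their siCTL peaks were overlapped. That interval does not reach the 21.4% of the RUNX loci, whose own interval is 13.4 to 32.4. Peaks of unlike width are compared here, as 9 of the 15 overlapped siCTL peaks of the RUNX loci were wide. A difference between peaks of like width was not tested.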

How the data were processed

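The p300/CBP ChIP-seq compared siCTL with siFra-1 in MDA-MB-231 cells. The deposited lists hold peak positions (chromosome, start, end) on hg19 and no other value. According to their methods the authors aligned reads with BWA, whereas the submitters' processing notes name Bowtie2. The authors binned the signal at 50 bp with PASHA, scaled it, subtracted background and kept runs above 25, with a gap of 50 bp and a run of 50 bp, in the Integrated Genome Browser. Scaling and enrichment of a library thus change peak number and width as occupancy would. A site just under the threshold is absent from a list, which is not absence of signal.

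Starts were raised by 1 for printing. GENCODE release 44, lifted to GRCh37, gave the gene models, and the 4 genes matched by symbol. Peaks sharing at least 1 bp were joined into sites on chromosomes 1 to 22 and X, with the widths of each list summed. A site is wide when it holds a peak of at least 250 bp. Motifs were matched in 200 bp about the site centre, and in the whole site for sites named one by one. Shares have Wilson intervals, differences of shares Newcombe intervals, ratios of counts Clopper-Pearson intervals and medians order-statistic intervals, at 95%, for counting error only. Python 3.11.15, numpy 2.4.6, pandas 2.3.3, scipy 1.17.1, pysam 0.24.0 and matplotlib 3.10.9 were used. The functions were tested on simulated data, and overlap counts on the deposited lists were set against bedtools 2.31.1.

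Each of the 4 genes was described with all its sites wide in either list or reaching a promoter window, and narrower sites by counts. Sequences were given for the widest site and the widest site in 1 list alone, except for 1 tied site of CBFB that is not reported here. The genes, lists and rules were chosen with earlier results of these data known. Alternatives were other minimum widths, windows, gene models, overlaps and motif letters, merging of peaks within 500 bp, and a siCTL list cut by width to as many peaks as siFra-1.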

Additional observations from a re-analysis of the deposited data

How the results depend on the processing

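Of 84 values recomputed under an alternative, 61 stayed within the interval or count range of the reported value and 23 moved beyond it. A change of direction was counted only for ratios whose interval excluded 1, and 0 changes were found. The ratios so counted were those of peak number and summed width at the loci and of peak number at RUNX2. For summed width that interval, 0.552 to 0.843, took each 50 bp step as a separate count. Neighbouring steps are not independent, so whether a summed width stayed within it says little. The ratio of 1 at RUNX3, for which direction was not counted, was 2 from 150 bp and 0.5 with 50 kb about the TSS. Above a minimum width of 150 bp, the ratio of peak number at the loci was 0.8, the ratio of summed width 0.918, and the overlapped share 48% of siCTL and 60% of siFra-1 peaks. With at least 250 bp, these were 0.846, 0.969, 53.8% and 63.6%, and the ratio at RUNX2 was 1. With 100 kb about the TSS alone, without the gene body, the ratio of summed width was 0.514 and both overlapped shares were 0 (of 16 siCTL and 8 siFra-1 peaks). The TSS is here the 5′ end of the gene record, which at RUNX1 (37376965) lies far upstream of P1 (36421599). That window thus left out P1 and P2 of RUNX1 and kept 2 siCTL peaks and 1 siFra-1 peak there. An overlap of 50% of both peaks gave shares of 12.9% and 25.7%. With the siCTL list shortened, the ratio of peak number was 0.875 and the overlapped share of siCTL peaks 32.5%. AP-1 letters stood in 26.1% of sites in 400 bp, 30.3% of sites of at least 150 bp and 41.2% of wide sites, and RUNX letters in 5.88% of wide sites and, as TGTGGTT, in 4.55% of all. The cause of these shifts was not tested, apart from those that follow from a smaller set of peaks or a longer or shorter string. Under the 3 alternatives chosen after seeing the data, the 5 of 5 upstream RUNX1 sites that were narrower or absent became 5 of 6 with merged peaks and were 5 of 5 under the other 2. In the canonical gene the count of 0 became 1 with merged peaks, 2 with an overlap of 50% and 0 with peaks within 200 bp shared. No value could be given for CBFB from 150 bp, for RUNX3 from 250 bp, or for the median width difference with the TSS window alone. The canonical transcript gave 43 and 22 peaks at the loci, and 250 kb about the TSS gave 12 and 6 at CBFB. No paired analysis was possible because there was 1 library per condition and no test, and for the same reason no library could be left out.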
